A study of Mus musculus with 2 samples.

Results

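Epicardial cells, the mesothelial sheet that covers the outer surface of the heart, were taken from single-cell RNA sequencing of E11.5 mouse hearts. A barcode counted as an epicardial cell when it held a UMI (a unique molecular identifier, which marks 1 captured RNA molecule) of at least 4 of the 7 genes Upk3b, Upk1b, Wt1, Aldh1a2, Tbx18, Lrrn4 and Krt19. Its 5 cardiomyocyte genes (Tnnt2, Myh6, Myh7, Actc1 and Myl7) had to make up under 2% of its UMIs, and it had to hold UMIs of fewer than 4 of 6 endothelial genes. Of the 11640 barcodes that the authors placed in their deposited embedding, 1055 met this rule. There were 859 in the control library and 196 in the H2CKO library. The cells were thus chosen by their own expression values, and the levels of the genes in the rule describe the choice and support nothing.

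The study set hearts whose Nfatc1-expressing lineage lacks the transcription factor Hand2 against control hearts, with 1 droplet 3′ library of each genotype. Embryos of both genotypes were held on ice for about 3 hours before dissociation. The H2CKO hearts were Nfatc1Cre/wt Hand2fx/fx R26RmTmG/wt, and the control hearts were Hand2fx/+ R26RmTmG/wt with no Cre. Both groups thus carried at least 1 floxed Hand2 allele and the mTmG reporter, which switches from membrane Tomato to membrane GFP where Cre acts. Nfatc1-Cre acts mainly in the endocardium, so epicardial cells are not its principal target. The labels give neither the number nor the sex of the hearts behind a library. With 1 library per genotype no test between genotypes was possible: a difference below is between these 2 libraries, and every interval is a 95% interval of counting error alone.

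The epicardium forms when cells of the proepicardium, a cluster of mesothelial cells beside the septum transversum, spread over the heart tube. It makes retinoic acid and growth factors such as IGF2 that act on the underlying myocardium. Part of its cells later undergo epithelial-to-mesenchymal transition (EMT), enter the myocardium and give rise to fibroblasts and vascular mural cells, with the transcription factors WT1, TBX18 and TCF21 marking these cells at successive steps.

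The deposited tables held 14114 control and 13885 H2CKO barcodes, of which 5408 and 6232 were in the embedding. Epicardial cells had a median of 15831 UMIs in the control library and 10727 in the H2CKO library, and their summed UMIs came to 17965172 and 2588663. Mitochondrial genes took a median of 2.67% and 3.31% of their UMIs, and haemoglobin genes 0.401% and 0.619%. Of the barcode sequences, 15 occurred in the embeddings of both libraries, and 1 epicardial cell in each library carried one of them.

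Epicardial cells made up 15.9% of the control embedding (exact binomial interval 14.9 to 16.9) and 3.15% of the H2CKO embedding (2.73 to 3.61). The lowest gene number among embedding barcodes was 2501 in the control library and 2002 in the H2CKO library, so the filters differed. At an equal minimum of 2501 genes the H2CKO share was 161 of 5513 barcodes, or 2.92% (2.49 to 3.40). Among barcodes with at most 5% mitochondrial UMIs the shares were 19.5% and 9.13%, a smaller gap in the same direction. This limit kept 830 and 169 epicardial cells, out of 4248 control and 1851 H2CKO barcodes. The median mitochondrial share of all embedding barcodes was 3.44% in control and 6.35% in H2CKO, so the limit changed mainly the H2CKO total. Recovery of cells and composition of the hearts cannot be told apart with 1 library each.

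The cells lay together on the authors' embedding. At least 5 of the 10 nearest neighbours were epicardial for 756 of the 859 control cells (88.0%) and 175 of the 196 H2CKO cells (89.3%). In contrast, 59 control and 11 H2CKO cells had no epicardial neighbour among the 10.

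**Figure D1:**
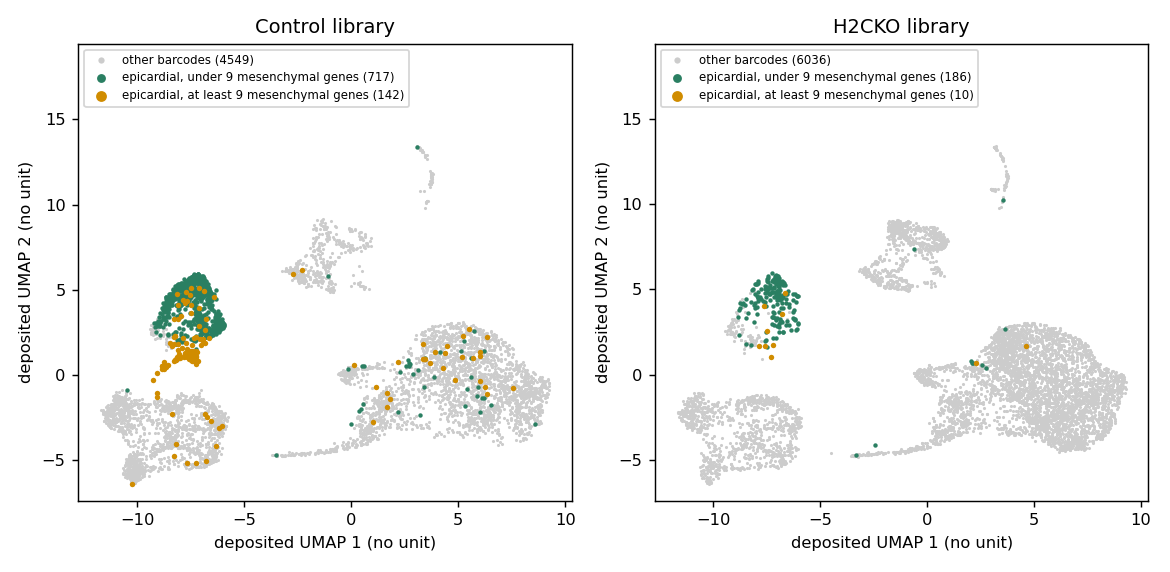
Position of each barcode on the 2 axes of the authors' deposited embedding (arbitrary units), 1 panel per library, with epicardial cells coloured and all other barcodes in grey. The 859 control and 196 H2CKO cells form 1 main group, and 59 and 11 of them lie apart with no epicardial neighbour.

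At the edge of the rule, 51 control and 36 H2CKO cells had exactly 4 markers, while 45 and 23 barcodes that met the other conditions had 3 and were left out. Cells with 4 markers held a median of 13651 and 9052 UMIs, and the barcodes just outside held 17814 and 12454. All 7 markers were found in 466 control cells (54.2%) and 58 H2CKO cells (29.6%), in libraries that differed in depth per cell. A further 150 control and 44 H2CKO barcodes had at least 4 markers but cardiomyocyte genes at 2% or more, and 30 and 10 had at least 4 endothelial genes.

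The markers themselves were within 2-fold of each other in the epicardial cells of both libraries. Levels are given in CPM: the UMIs of a gene summed over the epicardial cells of a library and divided by the total of those cells, on the usual CPM scale. Upk3b, a urothelial and mesothelial membrane protein, was at 859 CPM in control and 741 CPM in H2CKO cells. Wt1, the Wilms tumour transcription factor, was at 185 and 172 CPM. Aldh1a2, the enzyme that makes retinoic acid in the epicardium, was at 238 and 164 CPM, and the T-box factor Tbx18 at 296 and 197 CPM. The keratin Krt19 was at 156 CPM in control and 226 CPM in H2CKO cells. Across the 7 markers the log2 ratio of H2CKO over control, computed after adding 5 CPM to each level, ran from -0.58 for Tbx18 to 0.52 for Krt19, and none reached 2-fold.

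Genes outside the rule described the cells further. The 12 genes most enriched over the other embedding barcodes, ranked by the lower of the 2 libraries, began with Apela, a secreted peptide of the apelin receptor, at 359 CPM in control and 513 CPM in H2CKO cells. They included Dcn (decorin, a matrix proteoglycan; 654 and 754 CPM), Krt7 (an epithelial keratin; 159 and 158 CPM), Rspo1 (an enhancer of Wnt signals; 76.4 and 79.96 CPM) and S100a6 (a calcium-binding protein; 372 and 630 CPM). Kcne1l, a potassium channel subunit, was at 249 and 313 CPM, Hpgd, which breaks down prostaglandins, at 195 and 166 CPM, and Tm4sf5, a tetraspanin-like membrane protein, at 101 and 117 CPM. Smim1 (342 and 327 CPM), Tmem255a (91.6 and 63.7 CPM) and Aplp1 (163 and 154 CPM) encode membrane proteins. None of the 12 was past 2-fold between the libraries. The nearest was Sema3d, a secreted guidance protein of the epicardium, at 161 CPM in control and 78.0 CPM in H2CKO cells, a log2 ratio of -0.9997 that lay just short of the threshold.

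**Figure D2:**
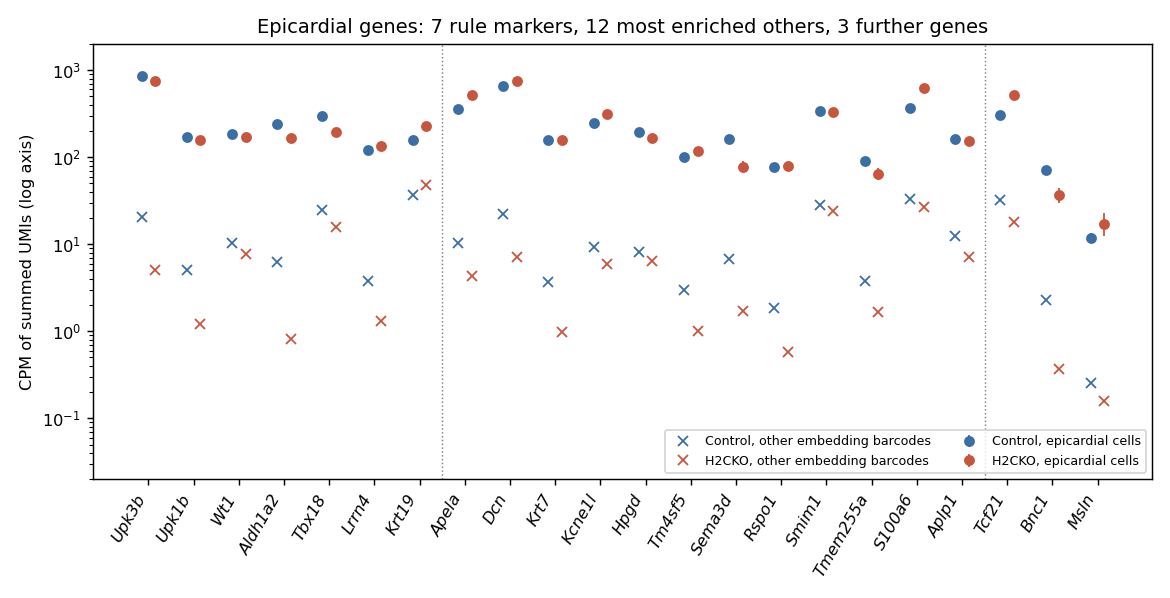
CPM of summed UMIs (log axis) of 22 epicardial genes in epicardial cells (circles, with exact Poisson 95% intervals) and in the other embedding barcodes (crosses) of the control and H2CKO libraries. For each gene both circles lie above both crosses, and Sema3d (161 CPM in control, 78.0 CPM in H2CKO) and Bnc1 (71.4 and 36.7 CPM) have the widest gap towards lower H2CKO levels.

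Tcf21, a transcription factor of epicardial cells and their fibroblast descendants, was higher in H2CKO cells. It was at 307 CPM in control and 516 CPM in H2CKO cells, a log2 ratio of 0.74 with a ratio of counts of 1.68 (interval 1.58 to 1.79). The ratio is larger than counting error but under 2-fold. Tcf21 UMIs were found in 97.8% and 96.9% of cells. With each cell thinned to 5000 UMIs, to set the depths equal, these shares were 75.3% and 87.1%.

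Markers of other cell types were found in the epicardial cells of both libraries at differing levels. No gene of the white blood cell, liver or foregut endoderm lists reached the minimum level, and their summed levels were at most 16.5 CPM in either library. The 12 cardiomyocyte markers outside the rule summed to 5494 CPM in control and 6962 CPM in H2CKO epicardial cells, against 27508 and 35586 CPM in the other embedding barcodes. The median log2 ratio of these 12 markers was 0.52, with 10 of them above 0, against -0.17 for all tested genes. Below 0 were Ttn (1256 and 630 CPM, -0.99) and Ryr2 (41.6 and 32.4 CPM, -0.32). Of the 12, the ventricular myosin light chain Myl2 alone was past 2-fold, and the matching share of all tested genes was 0.217%. It was at 893 and 1810 CPM (1.02), and among cells with at most 5% mitochondrial UMIs its log2 ratio was -0.24. Of the 5 cardiomyocyte genes of the rule, Myh6 alone lay below 0. It was past 2-fold lower (184 and 78.0 CPM, -1.18), as were 2.81% of all tested genes. The 10 erythroid markers summed to 3749 and 5610 CPM, and the haemoglobin gene Hbb-bs was past 2-fold at 38.0 and 108 CPM. Barcodes with haemoglobin at 30% or more of UMIs gave a measure of free RNA, and in them the 7 epicardial markers were each at 0.35 to 10.7 CPM.

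Hand2, the targeted gene, was at nearly equal levels in the epicardial cells of both libraries. It was at 127 CPM in control cells (exact Poisson interval 122 to 132) and 112 CPM in H2CKO cells (99.1 to 125), a log2 ratio of -0.18. UMIs of Hand2 were found in 83.0% and 69.9% of cells, and in 45.4% and 43.8% after thinning to 5000 UMIs. In erythroid barcodes, which should lack it, the shares were 8.37% and 3.97%. Endothelial cells of the same libraries, the class that includes the Cre-active endocardium, had 224 and 16.6 CPM, and mesenchymal cells 174 and 59.95 CPM. Cardiomyocytes had 101 and 85.4 CPM. The labels do not say which part of Hand2 is deleted, so a 3′ count checks the deletion only as far as these levels go.

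GFP, which Cre switches on, was at 11.4 CPM in control and 80.4 CPM in H2CKO epicardial cells, from 205 and 208 UMIs. It was found in 162 control cells (18.9%) and in 37 H2CKO cells (18.9%), and after thinning in 4.2% and 10.3%. In the H2CKO library, 178 of the 208 UMIs sat in 10 cells with at least 3 each, of which 6 were among the mesenchyme-rich cells described below. By comparison, endothelial cells were at 17.7 CPM in control and 1165 CPM in H2CKO, mesenchymal cells at 14.9 and 713 CPM and cardiomyocytes at 12.9 and 12.2 CPM. The control library, with no Cre, sets the baseline of these counts. Erythroid barcodes had a GFP UMI in 1.72% and 6.24% of cases. Most H2CKO epicardial cells thus had no GFP UMI at this depth, as did most control cells. Tomato was at 20.7 and 7.34 CPM.

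Across all genes, most differences between the libraries were also seen in the other cell classes. Of 6441 genes with at least 20 CPM and 20 UMIs in the higher library, 14 were at least 2-fold higher in H2CKO epicardial cells (0.217%) and 181 at least 2-fold lower (2.81%). In mesenchymal cells 0.183% were higher and 1.72% lower, in cardiomyocytes 0.580% and 2.64%, and in endothelial cells 0.889% and 7.23%. Of the 181 lower genes, 151 had a median log2 ratio of -0.5 or lower over these 3 classes, and in 97 of the 181 at least 1 of these classes itself passed the lower threshold. The median tested gene in epicardial cells was at -0.17, and 62.8% of tested genes lay below 0. With ratios centred on the median gene, 37 genes were past 2-fold higher and 58 lower.

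The ratio followed the length of the gene. Across genes, which are not independent replicates, Spearman's rho of the log2 ratio with the genomic span was -0.551 in epicardial cells, -0.406 in cardiomyocytes, -0.483 in endothelial and -0.549 in mesenchymal cells. With the tested genes in 4 equal groups by span, the shortest (median 5.16 kb) had a median log2 ratio of 0.16 and the longest (median 102 kb) -0.53. The 181 lower genes had a median span of 69.8 kb and the 14 higher genes 2.97 kb, against 24.7 kb for all. After the running median over genes of like span was taken off, 32 genes (0.497%) were past 2-fold higher and 49 (0.761%) lower, and 38 of the 181 lower genes were still past the threshold.

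**Figure D3:**
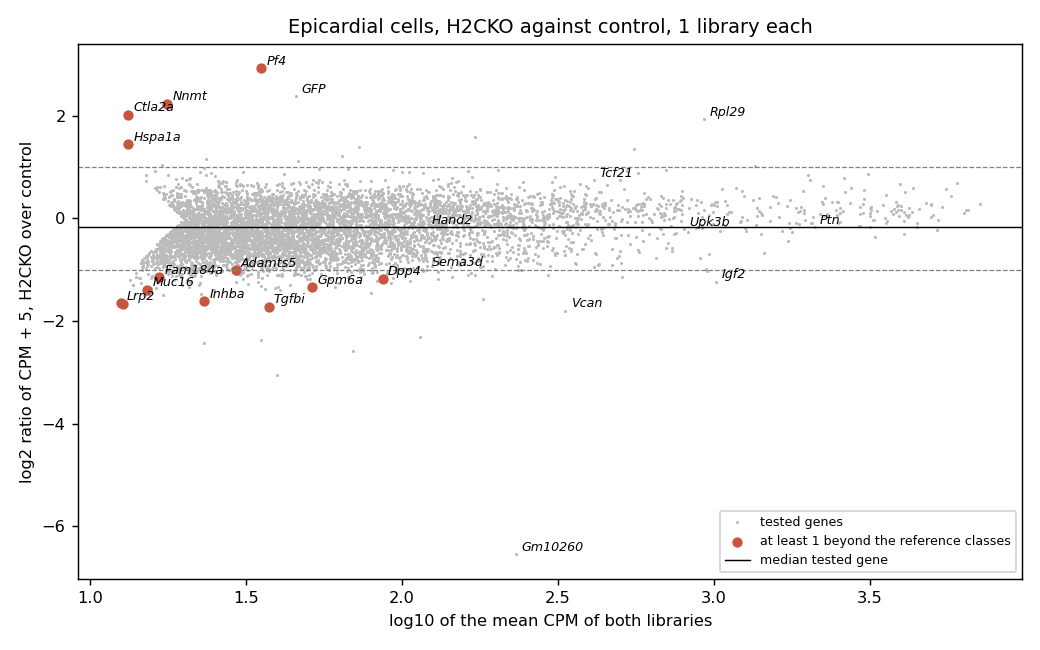
Log2 ratio of H2CKO over control (CPM + 5) against log10 of the mean CPM for the 6441 tested genes in epicardial cells, with dashed lines at 2-fold and a solid line at the median gene (-0.17). Coloured points are the 4 higher and 9 lower genes that also lie at least 1 beyond the other cell classes, and most others lie between the dashed lines.

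Only 13 genes differed by 2-fold and also by a further log2 step of 1 from the median of cardiomyocytes, endothelial and mesenchymal cells. The 4 higher (0.0621%) were Pf4, Nnmt, Ctla2a and Hspa1a. The 9 lower (0.140%) were Tgfbi, Meox1, Lrp2, Inhba, Muc16, Gpm6a, Dpp4, Fam184a and Adamts5. For 5 of the 9 lower genes (Lrp2, Muc16, Gpm6a, Dpp4 and Fam184a) and for Nnmt and Hspa1a, no other class reached the minimum level. For those genes the other classes gave few or no UMIs to set the ratio. Nnmt, although under that minimum, was also higher in mesenchymal cells, with a log2 ratio of 1.38.

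Of 24 tested genes of the list of epicardial and mesothelial genes outside the rule, 3 were past 2-fold lower (Lrp2, Muc16 and Gpm6a), beside 2.81% of all tested genes, and none was higher. The list's median was -0.31, against -0.17 for all tested genes, and -0.02 with the span trend taken off. Of the 24, 16 lay below 0. Members under 2-fold lay on both sides, such as the sulfatase Sulf1 (155 and 75.7 CPM, -0.99) and the integrin Itga4 (147 and 84.6 CPM, -0.77), and above 0 the keratin Krt8 (95.2 and 165 CPM, 0.77) and Rarres2, the secreted protein chemerin (62.7 and 95.4 CPM, 0.57).

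Lrp2, which encodes the endocytic receptor megalin (chromosome 2, 69424340 to 69586065, GRCm38, minus strand), was at 21.7 CPM in control and 3.48 CPM in H2CKO cells, from 390 and 9 UMIs. Its log2 ratio was -1.66, and after thinning it was found in 11.53% and 2.58% of cells. Muc16, a membrane mucin of mesothelia (chromosome 9, 18495455 to 18674530, minus strand), was at 24.4 and 6.18 CPM, a log2 ratio of -1.39.

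Gpm6a, a membrane glycoprotein (chromosome 8, 54954843 to 55060871, plus strand), was at 76.1 CPM in control and 27.0 CPM in H2CKO cells, a log2 ratio of -1.34. Thinned cells held it in 34.2% and 13.9% of cases. Dpp4, a cell-surface peptidase (chromosome 2, 62330073 to 62412231, minus strand), was at 122 and 51.4 CPM, a log2 ratio of -1.17, and was found in 46.4% and 20.1% of thinned cells. Before thinning, cells with a UMI were 27.6% and 4.08% for Lrp2, 67.5% and 49 of 196 for Gpm6a and 78.1% and 40.3% for Dpp4. In erythroid barcodes, which should lack these genes and were deeper (median 18758 and 13365 UMIs), the shares were 0.446% and 0.0361% for Lrp2, 0.824% and 0.289% for Gpm6a and 1.10% and 0.271% for Dpp4. The shares in epicardial cells of both libraries were above these. With the span trend taken off, Lrp2 remained past 2-fold at -1.12, while Muc16 (-0.85), Gpm6a (-0.78) and Dpp4 (-0.65) did not. Bnc1, a zinc-finger factor of mesothelia, had 71.4 and 36.7 CPM, a log2 ratio of -0.87 that did not reach 2-fold. Fam184a was at 24.8 and 8.50 CPM (-1.14), and Adamts5, a protease that cleaves versican, at 40.9 and 17.8 CPM (-1.01).

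The start regions of 3 of these lower genes are shown so that their letters can be compared. Each is the 250 bases upstream of the gene's RefSeq start in GRCm38.p6, read 5′ to 3′ on the gene's strand: Muc16 at chr9:18674604-18674853 (minus), Gpm6a at chr8:54954478-54954727 (plus, 1 of its 2 starts in the table) and Dpp4 at chr2:62412232-62412481 (minus). Capitals mark the matches found on either strand to CATCTG, an E-box of the kind bound by HAND and TWIST factors (read as CAGATG on the other strand), and to CATTCC, the core of TEAD sites.
Muc16: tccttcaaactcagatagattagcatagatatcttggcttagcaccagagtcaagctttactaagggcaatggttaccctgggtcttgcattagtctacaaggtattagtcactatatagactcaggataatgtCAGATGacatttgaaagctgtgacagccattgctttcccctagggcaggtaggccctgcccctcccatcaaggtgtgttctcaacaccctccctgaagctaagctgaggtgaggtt
Gpm6a: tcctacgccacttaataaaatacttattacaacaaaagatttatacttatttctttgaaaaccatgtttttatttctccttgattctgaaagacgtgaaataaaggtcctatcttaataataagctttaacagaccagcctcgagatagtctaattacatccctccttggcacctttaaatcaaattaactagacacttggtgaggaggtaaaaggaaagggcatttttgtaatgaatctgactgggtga
Dpp4: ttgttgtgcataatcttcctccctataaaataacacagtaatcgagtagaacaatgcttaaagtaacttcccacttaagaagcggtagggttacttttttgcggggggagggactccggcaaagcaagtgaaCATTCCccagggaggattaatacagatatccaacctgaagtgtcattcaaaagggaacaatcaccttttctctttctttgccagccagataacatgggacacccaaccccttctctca
Muc16 held 1 CATCTG match and no CATTCC, Dpp4 held 1 CATTCC match and no CATCTG, and Gpm6a held neither. The windows of Lrp2 and Fam184a, not printed, held neither as well, so each motif was in 1 of 5 windows of the lower genes. Of all 32851 start windows of this length, 14.4% hold CATCTG and 12.6% hold CATTCC, and neither motif contains the other. A match describes only these letters.

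Several mesenchymal genes were lower. Tgfbi, a matrix protein induced by TGF-beta (chromosome 13, 56609523 to 56639562, plus strand), was at 60.005 CPM in control and 14.7 CPM in H2CKO cells, a log2 ratio of -1.72. Meox1, a homeobox factor of mesoderm (chromosome 11, 101877510 to 101894374, minus strand), was at 22.1 and 3.48 CPM, a log2 ratio of -1.68. Inhba, the activin A subunit (chromosome 13, 16011851 to 16031621, plus strand), was at 37.5 and 8.88 CPM, a log2 ratio of -1.61. All 3 stayed past 2-fold with the span trend taken off, at -1.45, -1.62 and -1.52. Of the 12 cushion and interstitial mesenchyme markers, all tested, 5 were past 2-fold lower (Tgfbi, Meox1, Postn, Papss2 and Twist1), beside 2.81% of all tested genes, none was higher, and the median log2 ratio was -0.73, against -0.17 for all tested genes.

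In the control library most of these UMIs came from few cells. A second set of 12 mesenchymal genes, which shares 10 with the marker list, was counted in each cell: Postn, Meox1, Tgfbi, Papss2, Hapln1, Sox9, Pdgfra, Twist1, Prrx2, Cthrc1, Col1a1 and Col3a1. Epicardial cells that held at least 9 of them, a number chosen after the values were seen, were 142 of 859 in the control library (16.5%, interval 14.1 to 19.2) and 10 of 196 in the H2CKO library (5.10%, 2.47 to 9.18). The mesenchymal class itself held a median of 11 of these genes in control and 9 in H2CKO. The cut thus depends on depth and gene levels that differed between the libraries. After thinning to 5000 UMIs, at least 6 of the genes were found in 139 of 859 control cells (16.2%, 13.8 to 18.8) and in 14 of 194 H2CKO cells (7.22%, 4.001 to 11.8). The 142 control cells held 97.2% of the Meox1 UMIs of control epicardial cells, 94.3% of those of Postn (periostin, a matrix protein), 91.1% of Papss2, 89.2% of Tgfbi and 87.4% of Inhba. All of these but Inhba helped to pick the cells, so their high shares follow in part from that choice. Of the collagen gene Col3a1, which also helped to pick them, the 142 cells held 38.0%. The 10 H2CKO cells held 66.7% of the Meox1, 50.0% of the Postn, 64.7% of the Papss2, 63.2% of the Tgfbi and 30.4% of the Inhba UMIs of their library's epicardial cells. The part of the 142 control cells was smaller for other lower genes, at 15.9% of Lrp2, 12.8% of Muc16, 12.9% of Gpm6a and 14.0% of Dpp4. The 142 cells were deeper, so their part of all UMIs was larger than 16.5%. Lrp2 was at 11.1 CPM in them and 26.5 CPM in the other control epicardial cells. Muc16 was at 10.1 and 30.8 CPM, Gpm6a at 31.6 and 96.2 CPM and Dpp4 at 55.3 and 152 CPM. By contrast, Meox1 was at 69.3 and 0.888 CPM and Inhba at 106 and 6.86 CPM.

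**Figure D4:**
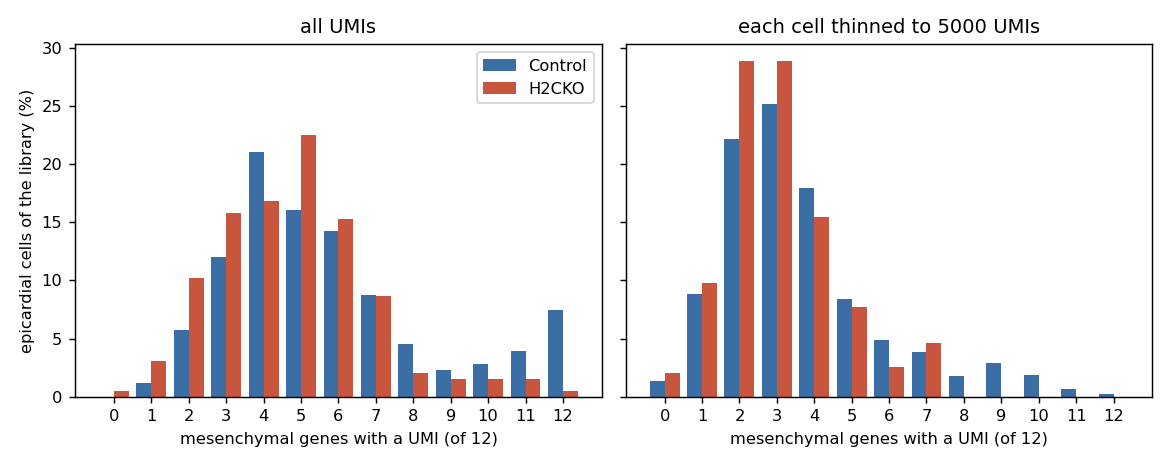
Percent of epicardial cells in each library (vertical axis) by the number of 12 mesenchymal genes with a UMI (horizontal axis), from all UMIs on the left and with each cell thinned to 5000 UMIs on the right. On the left the control cells extend further to the right: 16.5% of them, against 5.10% of H2CKO cells, held at least 9 genes.

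The mesenchyme-rich cells differed from the other epicardial cells in several measures. Their median UMI number was 34848 in control and 32487 in H2CKO, against 14311 and 10487 in the other epicardial cells. The 7 epicardial markers summed to 994 and 740 CPM in them, against 2488 and 1951 CPM in the others and 42.4 and 46.9 CPM in mesenchymal cells. The 12 genes of the second set summed to 3373 and 2056 CPM in them, between the other epicardial cells (1496 and 1188 CPM) and the mesenchymal class (5889 and 3569 CPM). Scrublet, which scores how closely a barcode resembles the sum of 2 others, gave them a median of 0.197 and 0.206, against 0.0199 and 0.0219 in the others. Its automatic threshold called 112 of the 142 control cells and 0 of the 10 H2CKO cells. Over the whole embeddings it called 11.8% of control and 2.21% of H2CKO barcodes. In the top 6% of scores of each library, an equal limit, were 58 of the 142 control cells (40.8%) and 6 of the 10 H2CKO cells, and the part of doublets in these cells was not tested.

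Each ratio was also computed without the mesenchyme-rich cells. Since mesenchymal genes picked those cells, and more of them in the control library, the values of mesenchymal genes without them follow from that choice and support nothing. Of the genes that picked the cells, Tgfbi (9.36 and 6.24 CPM), Meox1 (0.888 and 1.34 CPM) and Papss2 (3.55 and 2.67 CPM) were then under the minimum of 20 CPM in both libraries, where the added 5 CPM pulls a ratio towards 0. Col3a1 (362 and 173 CPM, -1.04) was still past 2-fold lower, and Prrx2 (26.5 and 65.9 CPM, 1.17) was past 2-fold higher. Cthrc1 (16.9 and 29.8 CPM) was at 0.67 and Twist1 at 0.24, and Hapln1, Sox9, Pdgfra and Col1a1 were under 2-fold. Postn was at 0.93, but at -0.34, from 33 and 4 UMIs, when all cells with at least 6 mesenchymal genes were left out, so its direction was not stable. Genes that did not pick the cells went both ways. Inhba, Prrx1, Vcan, Lef1 and Robo2 had 63.9% (Robo2) to 87.4% (Inhba) of their control UMIs in these cells. Their values without the cells thus follow in part from the same choice. Inhba (6.86 and 7.13 CPM) and Prrx1 (5.16 and 4.90 CPM) were under the minimum as well, and Vcan (-0.75), Lef1 (-0.63) and Robo2 (-0.48) were no longer past 2-fold. The median of the epicardial and mesothelial list was -0.40 without them. Lrp2 (-1.80), Muc16 (-1.56), Gpm6a (-1.52) and Dpp4 (-1.37) were still past 2-fold lower, and Sema3d (-1.13) and Bnc1 (-1.03) passed as well. Tcf21 was at 0.63.

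**Figure D5:**
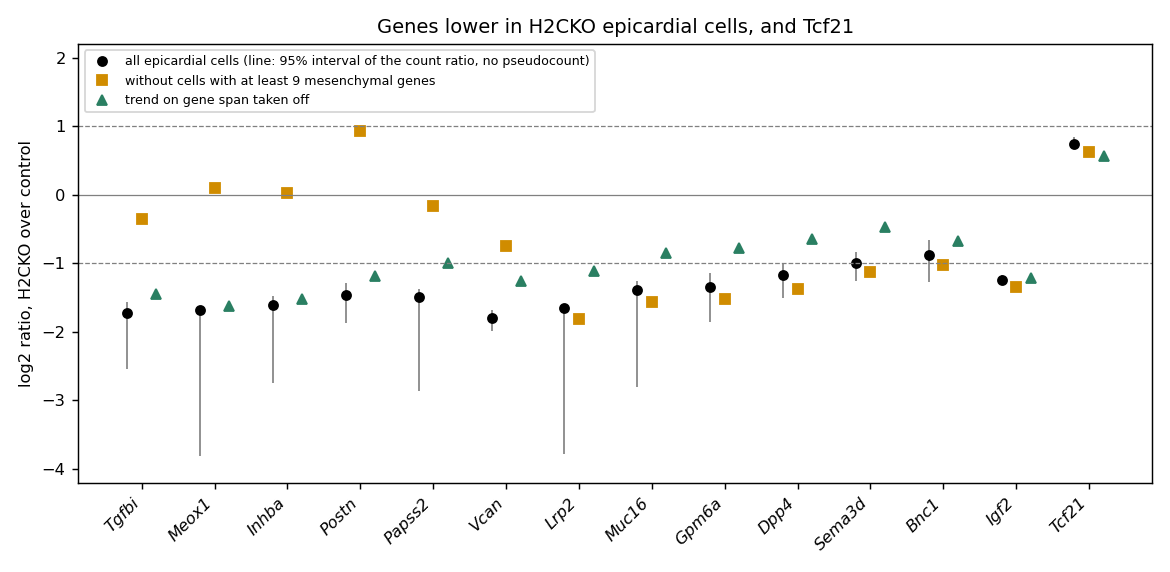
Log2 ratio of H2CKO over control (CPM + 5) for 14 genes over all epicardial cells (circles, with lines for the 95% counting interval of the ratio without the added 5 CPM), without the mesenchyme-rich cells (squares) and with the trend on gene span taken off (triangles). Leaving out those cells, which mesenchymal genes picked, moves Tgfbi from -1.72 to -0.35, at levels under 20 CPM, and Lrp2 from -1.66 to -1.80.

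Genes of EMT were mostly under 2-fold. Of 18 tested genes of the list, 2 were lower, Twist1 (177 and 83.8 CPM) and Prrx1 (25.5 and 6.95 CPM), both mesenchymal transcription factors, beside 2.81% of all tested genes, and none was higher. Vim, the intermediate filament of mesenchymal cells, was at 2113 and 2653 CPM (0.33), and Snai2, an EMT transcription factor, at 39.2 and 29.0 CPM (-0.38). Smooth muscle actin Acta2 was level, at 408 and 409 CPM. The mesenchyme-rich control cells held 78.4% of the Twist1 and 86.1% of the Prrx1 UMIs, and without these cells Prrx1 was at 5.16 and 4.90 CPM (-0.04). The list's median was -0.27, and 0.19 without those cells, which Twist1 and Sox9, both of this list, helped to pick.

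Among 32 tested matrix genes, 3 were lower, beside 2.81% of all tested genes: Vcan (versican, 521 CPM in control and 146 CPM in H2CKO cells), Postn (119 and 40.2 CPM) and Col3a1 (403 and 184 CPM). Fn1 (fibronectin) was at 1194 and 738 CPM (-0.69), whereas Sparc, a matrix-binding glycoprotein, was at 2440 and 2628 CPM (0.11). None was past 2-fold higher. The mesenchyme-rich control cells held 82.2% of the Vcan UMIs, and without them Vcan was at 134 and 77.9 CPM (-0.75) and no longer past 2-fold. Vcan was also lower in mesenchymal cells, with a log2 ratio of -1.32, and in endothelial cells, with -2.69.

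Of 21 tested ligands of the epicardium, only Igf2, the growth factor that acts on the myocardium, was past 2-fold, beside 2.81% of all tested genes. It was at 1432 CPM in control and 604 CPM in H2CKO cells (-1.24). The gene was lower in the other classes too, at -1.58 in mesenchymal and -1.88 in endothelial cells, so the difference was not limited to the epicardium. Ptn (pleiotrophin) was at 2231 and 1978 CPM (-0.17), Mdk (midkine) at 1567 and 1276 CPM (-0.30), and Tgfb2 at 151 and 120 CPM (-0.32). Bmp4 was at 92.6 and 112 CPM (0.27), Igf1 at 94.1 and 50.2 CPM (-0.84) and the chemokine Cxcl12 at 21.9 and 28.6 CPM (0.32). Over the 20 processing alternatives Igf1 ranged from -0.93 to 0.31 and Cxcl12 from -0.79 to 1.23, so neither kept its direction.

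Of 16 tested receptors, Npr3, the natriuretic peptide clearance receptor (38.4 and 11.6 CPM), Robo2, a SLIT receptor (48.7 and 20.5 CPM), and Igf2r, which clears IGF2 (324 and 158 CPM), were lower, beside 2.81% of all tested genes, and none was higher. Without the mesenchyme-rich cells, which held 63.9% of the control Robo2 UMIs, Robo2 went from -1.08 to -0.48 and was no longer past 2-fold. Igf2r hardly moved, from -1.01 to -0.97, which lies just under the threshold. The list's median was -0.61, and -0.09 with the span trend taken off. Pdgfra, a receptor of epicardial descendants, was at 71.4 and 56.4 CPM (-0.32). The retinoic acid pathway had no gene past 2-fold among 7 tested, and the receptor Rara was at 25.8 and 15.8 CPM (-0.56).

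Signalling lists held few genes past 2-fold. The kinase Lats1 was the 1 lower gene of 16 in the Hippo list, at 25.4 and 8.11 CPM, and the Wnt effector Lef1 the 1 lower gene of 13 in the Wnt list, at 31.5 and 10.4 CPM. The mesenchyme-rich control cells held 65.2% of the Lef1 UMIs, and without them its log2 ratio was -0.63. In the Notch list Notch2 (28.7 and 10.4 CPM) and its ligand Jag1 (22.5 and 6.57 CPM) were lower, of 6 tested. Among 16 genes of junctions and polarity none was past 2-fold, with a median of -0.58, and -0.07 with the span trend taken off. Over the 16 pathway lists, 246 different genes were tested, 18 were lower (7.32%, against 2.81% of all tested genes) and 1 was higher, against 0.217%. In 8 lists the median lay more than 0.25 below that of all tested genes, and in 3 after the span trend was taken off.

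Cycling genes differed by less than 2-fold. Among the S phase genes the median was 0.03, and in thinned cells at least 4 of these genes were found in 78.6% of control (75.7 to 81.3) and 71.1% of H2CKO cells (64.2 to 77.4). For G2/M genes the median was -0.25 and the thinned shares were 47.5% (44.1 to 50.9) and 41.2% (34.2 to 48.5). These intervals cover counting error alone, so whether the shares differ between genotypes cannot be told with 1 library each. Top2a, a topoisomerase of dividing cells, was at 369 and 239 CPM (-0.61), and Mki67 at 189 and 112 CPM (-0.73). Other G2/M genes lay above 0, among them Ube2c (319 and 389 CPM, 0.29) and Cdk1 (135 and 186 CPM, 0.45), and 9 of the 16 lay below 0.

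Of the stress and immediate early genes, 16 tested, Fosb (61.2 and 20.1 CPM) and Egr1 (267 and 121 CPM), both early-response transcription factors, were lower, and the heat shock protein Hspa1a (4.79 and 21.6 CPM) was higher. Over all tested genes the shares were 2.81% lower and 0.217% higher. The list's median was 0.02. Glycolysis genes had a median of 0.08 with none past 2-fold.

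The higher genes differed in how their UMIs were spread. Nnmt, nicotinamide N-methyltransferase (chromosome 9, 48591877 to 48605153, minus strand), was at 2.95 CPM in control and 32.4 CPM in H2CKO cells, a log2 ratio of 2.24. It was found in 49 of 859 control cells (5.7%) and 57 of 196 H2CKO cells (29.1%), and in 1.7% and 18.6% after thinning. Mesenchymal cells had 1.7 and 12.5 CPM of Nnmt. In contrast, 119 of the 172 Pf4 UMIs and 54 of the 63 Ctla2a UMIs of the H2CKO cells came from 1 and the same cell. Without the top cell of each library the log2 ratio was 0.31 for Ctla2a and 1.65 for Pf4. Rpl29, a ribosomal protein gene, was at 382 and 1475 CPM (1.93), with a median of 1.99 in the other classes. Alad, an enzyme of haem synthesis, was at 83.1 and 260 CPM (1.59, other classes 1.18), the muscle protein gene Myoz2 at 12.7 and 34.4 CPM (1.15, other classes 0.91) and the small GTPase gene Rrad at 27.3 and 65.3 CPM (1.12, other classes 0.61). These genes were thus higher in the other classes as well.

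The 8 lowest ratios over all tested genes included Vcan and Tgfbi, described above, of which Tgfbi lay at least 1 beyond the other classes. Tpm3-rs7, Cwc22 and BC004004 were close to the other classes. Tpm3-rs7 was at 74.7 and 4.64 CPM (-3.05, other classes -3.20), the splicing factor gene Cwc22 at 123 and 16.2 CPM (-2.59, other classes -2.61) and BC004004 at 193 and 35.2 CPM (-2.31, other classes -1.96). Gm11361 (42.4 and 3.86 CPM) and Gm8797 (62.5 and 8.11 CPM), both predicted genes, had log2 ratios of -2.42 and -2.36. The predicted gene Gm10260 was at 463 CPM in control cells and had no UMI in H2CKO cells, which allows up to 1.16 CPM (3 counts). It was also lower in the other classes, with a median log2 ratio of -5.87, and its count is uncertain where near-identical copies share reads, which was not tested.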

How the data were processed

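The authors deposited UMI counts per gene and barcode for each library, with embedding coordinates (a score with no fixed unit) for part of the barcodes. Cell Ranger 5.0.1, Seurat 4 and GRCm38.p6 are named in the submitters' processing notes, per the labels, with no role given. Levels were computed from the deposited counts, summed over the epicardial cells of a library. Each genotype has 1 library, so no test was run and intervals are exact (Poisson, Clopper-Pearson and conditional ratio). PCR duplicates are removed by UMIs, and intervals cover counting error only.

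The log2 ratio used a pseudocount of 5 CPM. Genes counted as tested with at least 20 CPM and 20 UMIs in the higher library, and as past with a fold of 2. Reference classes were cardiomyocytes (5 genes at 5% of UMIs or more; 118 control and 113 H2CKO cells), endothelial cells (314 and 609) and mesenchymal cells (at least 6 of the second set of 12 mesenchymal genes, which holds Tgfbi and Meox1; 1672 and 999). Gene spans came from GENCODE vM21, and the trend was a running median over 301 genes. Thinning drew 5000 UMIs per cell, leaving out shallower cells. Scrublet was run in scanpy 1.11.5 and TMM factors in edgeR 4.0.16, with Python 3.11.15, numpy 2.4.6, pandas 2.3.3 and R 4.3.3. No doublets were removed. The code was tested on simulated data.

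Genes to name were the 8 highest and 8 lowest ratios over all tested genes and among those beyond the reference classes, the 12 most enriched genes, list members past 2-fold, a fixed set of epicardial genes, and up to 3 abundant members of each list; of the last 2 kinds not all are described. Reporters, haemoglobin, mitochondrial and sex-linked genes and those of the cell rule were left out of rankings. The cell rule, gene lists (29) and named genes were chosen with earlier results of these data known.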

Additional observations from a re-analysis of the deposited data

Results flagged for a closer look

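Barcodes outside the authors' embedding also met the epicardial rule, and no comparison above uses them. There were 95 in the control library, with a median of 23184 UMIs and 3866 genes, and 34 in the H2CKO library, with a median of 11506 UMIs and 2464 genes. No control shows how many are intact single cells.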

How the results depend on the processing

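The share of epicardial cells stayed higher in the control library under every alternative run. The control share was 14.4% with cardiomyocyte genes under 1%, 19.5% with mitochondrial UMIs at most 5%, 12.1% with cells thinned before the rule, 12.98% with at least 6 markers, 8.89% without cells with at least 6 mesenchymal genes, 13.3% without mesenchyme-rich cells, 14.4% without the top 6% of Scrublet scores and 6.76% of all deposited barcodes. The H2CKO share was 2.57% with at least 5 markers, 1.88% with at least 6, 9.13% with the mitochondrial limit, 2.26% with thinning before the rule, 2.17% without cells with at least 6 mesenchymal genes and 1.66% of all deposited barcodes. The count of genes past 2-fold (14 higher, 181 lower; 4 and 9 beyond the other classes) depended on the scale. It was 22, 404, 3 and 45 with cells thinned before the rule, 22, 334, 5 and 20 with the same cells thinned, 23, 354, 5 and 16 with pseudocount 1, and 8, 27, 2 and 1 with pseudocount 20. It was 37 and 58 with ratios centred on the median gene, 33 and 74 with TMM factors, 5, 41, 0 and 1 with a filter of 100 CPM, and 32, 49, 11 and 5 with the span trend off. Without cells with at least 6 mesenchymal genes it was 41, 352, 15 and 25, and without mesenchyme-rich cells 26 higher, with 8 and 17 beyond the other classes. Leaving out the top 5% of cells by UMIs gave 23 higher and 7 beyond, no filter 22 and 10, the mitochondrial limit 7 beyond, the top 6% of Scrublet scores 14 lower beyond, and a minimum of 2 reference classes 0 and 2. Of 1700 values of 85 named genes under the alternatives, 1256 were close to the main value, 437 moved and 7, all of genes past 2-fold in the main values, changed sign. Those 7 were Inhba (0.032), Meox1 (0.11), Postn (0.93) and Twist1 (0.24) without mesenchyme-rich cells, Meox1 (0.065) and Twist1 (0.20) without cells with at least 6 mesenchymal genes, and Myl2 (-0.24) with the mitochondrial limit. Counting genes under 2-fold too, 23 had alternatives on both sides of 0 (18 of them under 2-fold, such as Hand2, -0.36 to 0.14, Tbx20, Pdgfra and Ptn). Pf4, Nnmt and Igf2 were past 2-fold in all 20 settings, Lrp2 and Gpm6a in 19, Muc16 in 18, Tgfbi, Ctla2a and Hspa1a in 17, Dpp4, Fam184a and Inhba in 16, Myl2 in 12, Meox1 in 11 and Adamts5 in 10. The alternatives on mesenchymal genes, Scrublet scores, shared barcodes, all barcodes, 6 markers and the reference classes were chosen after seeing the data. No paired analysis was possible because each genotype has 1 library and the labels carry no replicate numbers.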
